A study of Homo sapiens with 32 samples.

Results

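The BCL2 family death and survival genes described here are BBC3, PMAIP1, BCL2L11, BID, BIK, BAX, BAK1, MCL1, BCL2L1 and BCL2. They were chosen by name, as the rows of the count table whose Ensembl identifier maps to one of these symbols, and 10 of the 60660 genes in the table are members. All 10 passed the filter on low counts in every comparison. Messenger RNA was sequenced in 32 libraries of HCT116, a human colorectal carcinoma line, to ask how loss of the RNA-binding proteins IGF2BP3 or IGF2BP2 changes gene expression with and without endoplasmic reticulum stress. All cells, controls included, carried a doxycycline-inducible OsTIR1 transgene, the plant F-box protein used for induced protein degradation. Parental cells were 2 samples with 2 replicate libraries per treatment (n = 4 DMSO, n = 4 tunicamycin). IGF2BP3 knockout cells were the 3 single-cell clones A3, D12 and E4, and IGF2BP2 knockout cells were the 3 single-cell clones B7, F6 and G6, each with 2 libraries per treatment (n = 6 DMSO and n = 6 tunicamycin per knockout). Tunicamycin, an inhibitor of N-linked glycosylation that causes misfolded proteins to build up in the endoplasmic reticulum, was given to the parental and IGF2BP3 knockout cells at 5 µg/mL for 4 h, and its solvent DMSO was the control. For the IGF2BP2 knockout clones neither its dose nor its duration is given in the sources used here. For the control libraries of clone G6 the title says control while the treatment field says tunicamycin. The title decided their place in the DMSO group, and HSPA5, the endoplasmic reticulum chaperone induced by this stress, was 773 to 1050 CPM (counts scaled to library size) in the IGF2BP2 knockout DMSO libraries, those of G6 included, against 9010 to 9960 CPM in tunicamycin. Nothing in the labels says that the replicate libraries came from separate cultures, so p-values measure the spread between these libraries, which may be technical. In bulk RNA, fewer cells of a kind and less RNA per cell cannot be told apart.

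Proteins of this family decide whether the outer mitochondrial membrane is opened in apoptosis. The executioners BAX and BAK1 form the pores, the survival proteins MCL1, BCL2L1 (BCL-xL) and BCL2 hold them back, and the BH3-only proteins BBC3 (PUMA), PMAIP1 (NOXA), BCL2L11 (BIM), BID and BIK tip the balance by binding the survival proteins or the executioners. In prolonged endoplasmic reticulum stress the transcription factors ATF4 and DDIT3 (CHOP) are known to raise several BH3-only genes. Messenger RNA levels do not measure the proteins, whose turnover and phosphorylation also set the outcome, and gene counts do not separate splice forms of opposite function such as those of BCL2L1 and MCL1.

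The clones came from 4 guides, which are shown because clones made with the same guide share its target site and did not always share an effect on these genes. Each is written 5′ to 3′ as the submitters give it, without capitals because no position within it was compared.
IGF2BP3 guide of clones E4 and A3: tggcaccgactgatagagct
IGF2BP3 guide of clone D12: acgcgtagccagtcttcacc
IGF2BP2 guide of clones F6 and B7: gagctgccggaggtcgtcgg
IGF2BP2 guide of clone G6: aggcgtagccggacttcagc
The sequence upstream of the start is shown for 3 of the 4 genes that moved in every genotype, PMAIP1 and BBC3 as the genes with the largest increases and BAK1 as the gene that fell. It was taken from the RefSeq promoter table (GRCh38.p14), which matched 8 of the 10 members by symbol, and is printed 5′ to 3′ on the gene's strand for the part of the 250 bases before the RefSeq start that lies outside every annotated exon. Capitals mark matches, on either strand, to the GC box GGGCGG.
PMAIP1 chr18:59899746-59899947 (+ strand): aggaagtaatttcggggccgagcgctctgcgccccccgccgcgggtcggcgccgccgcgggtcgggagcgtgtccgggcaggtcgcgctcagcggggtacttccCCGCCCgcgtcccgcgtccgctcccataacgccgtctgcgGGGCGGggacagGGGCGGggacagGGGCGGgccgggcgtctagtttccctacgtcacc
BBC3 chr19:47232767-47232917 (- strand): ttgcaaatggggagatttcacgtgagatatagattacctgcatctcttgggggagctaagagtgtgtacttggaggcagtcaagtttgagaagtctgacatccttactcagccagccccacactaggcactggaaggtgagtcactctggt
BAK1 chr6:33580294-33580526 (- strand): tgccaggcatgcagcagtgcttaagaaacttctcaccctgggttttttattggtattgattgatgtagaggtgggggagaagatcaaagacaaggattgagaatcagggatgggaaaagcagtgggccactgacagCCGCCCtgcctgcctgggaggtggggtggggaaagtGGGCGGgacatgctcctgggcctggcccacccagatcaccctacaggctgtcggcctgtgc
In the full window of 250 bases PMAIP1 held 4 GC boxes, BBC3 none and BAK1 2. Of 35116 promoter windows of this length, 42.6% held at least 1 GC box. The C/EBP-ATF composite element TGATGNAAN (3.13% of windows), the cAMP response element TGACGTCA (1.65%) and the endoplasmic reticulum stress element (0.074%) were not found in the window of any of these 3 genes. A match is a description of letters, and the absence of one covers this window alone.

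Library totals ran from 16651438 to 24913021 counts, with a median of 21441775.5. Libraries numbered replicate 1 had 21259 to 23139 genes with a count and those numbered replicate 2 had 23423 to 24267, so the replicate number marks a split that every group shares and whose nature the labels do not give. PMAIP1, BIK, MCL1 and BCL2L1 were higher in replicate 1 than in replicate 2 in 16 of 16 combinations of line and treatment, with BIK higher by 0.37 and BCL2L1 by 0.27 on average (log2 CPM). The largest mean gap of any member was that of BCL2, at 0.397 (from -0.199 to 1.18), higher in replicate 1 in 12 of 16. Each group holds both numbers equally, and values within each number are given beside the tunicamycin results and the main genotype and clone differences. Of 12 colorectal epithelial markers 7 averaged over 1 CPM, led by KRT8, KRT19, KRT18 and EPCAM, while VIL1, CDX1, LGR5, CEACAM5 and LGALS4 were at or near 0. No leukocyte (6 genes) or endothelial marker (4 genes) averaged over 1 CPM, and COL1A1 was the one of 7 fibroblast genes that did. The targeted genes were lower but still detected, as IGF2BP3 averaged 76.5 ± 6.35 CPM (SD) in the 4 parental DMSO libraries and 27.6 ± 10.8 in the 6 of its knockout. IGF2BP2 averaged 176 ± 17.9 CPM in the former and 86.3 ± 5.19 in the 6 of its own knockout. The IGF2BP3 clones were not alike in IGF2BP3, with log2 fold changes against parental cells over both treatments of -1.69 (A3), -0.72 (D12) and -1.78 (E4). A frameshift need not remove the messenger RNA, so these levels do not measure the loss of protein.

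In unstressed parental cells the survival genes MCL1 and BCL2L1 and the sensitizer PMAIP1 had the highest messenger RNA levels per length, and BCL2 had the lowest. Levels between genes were compared as CPM per kilobase of annotated exon (GENCODE v29). MCL1, the short-lived survival protein that PMAIP1 binds, was at 73.8 ± 5.48 CPM per kilobase (SD, n = 4). BCL2L1 was at 56.5 ± 7.04 and PMAIP1 at 48 ± 4.19, and these 2 did not separate, with 50.3 to 63.9 against 43.6 to 51.9 CPM per kilobase. MCL1 lay above both, at 68.3 to 79.7. The pore former BAX followed at 22.6 ± 1.39 CPM per kilobase. BIK (12.4 ± 1.76), its fellow pore former BAK1 (12.2 ± 0.888) and BID (10.9 ± 0.842), the substrate of caspase 8, overlapped in their ranges. BCL2L11, the activator that binds all survival proteins, was at 2.74 ± 0.261 CPM per kilobase, and BBC3, which does the same, was at 1.73 ± 0.148, with no overlap between them. BCL2, the founding survival gene, was at 0.161 ± 0.03 CPM per kilobase, from 36 to 57 counts in a library. With the longest coding transcript as the length BID rose to 19.5 ± 1.5 CPM per kilobase and moved ahead of BIK and BAK1. The other places held in parental cells, but the separations depended on the length. By that length MCL1 (82.1 ± 6.1) overlapped BCL2L1 (71.8 ± 8.93), and BCL2L11 (3.49 ± 0.332) overlapped BBC3 (2.99 ± 0.256). BCL2L1 then lay apart from PMAIP1 (55.1 ± 4.8). BBC3 moved ahead of BCL2L11 in IGF2BP3 knockout (3.94 against 3.42) and IGF2BP2 knockout (3.75 against 3.31).

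**Figure D1:**
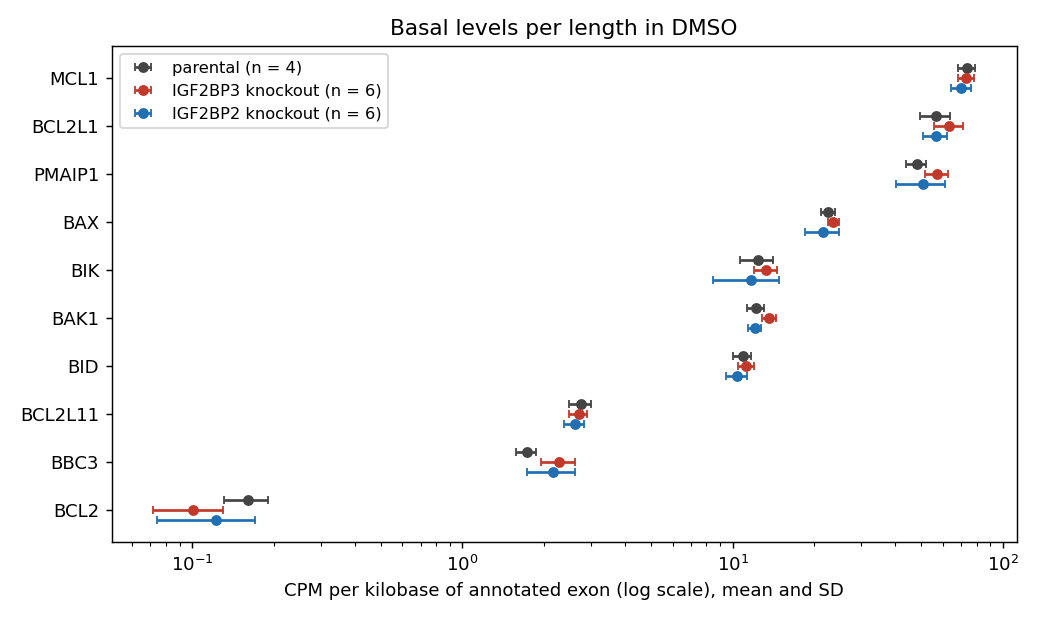
Level of each gene in DMSO as CPM per kilobase of annotated exon on a log axis, mean and SD over the libraries of each genotype. MCL1 leads at 73.8 and BCL2 is last at 0.161 in parental cells, and both keep those places in the 2 knockouts.

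The knockouts kept MCL1, BCL2L1, PMAIP1 and BAX as the leading 4 and BCL2 as the last. BAK1 and BIK exchanged places, at 13.7 ± 0.831 and 13.3 ± 1.32 CPM per kilobase in IGF2BP3 knockout DMSO libraries (SD, n = 6) and 12.1 ± 0.694 and 11.7 ± 3.21 in IGF2BP2 knockout (n = 6), within their spread. Some counts may hold reads of an overlapping gene, since whether counting used the strand is not given in the sources used here. BCL2L1 shares 43.0% of its exon bases with the antisense gene ABALON, which had 0 to 5 counts in a library. BCL2L11 shares 10.9% with MIR4435-2HG on the opposite strand, which stood at 22.2 to 53.8 CPM.

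Tunicamycin raised the BH3-only genes BBC3 and PMAIP1 and the survival gene MCL1 and lowered the pore former BAK1 in parental cells and in both knockouts. BBC3 (ENSG00000105327_18) is encoded on chromosome 19 (GRCh38, 47220822 to 47232766, minus strand). Its level in parental DMSO libraries was 5.96, 5.69, 5.49 and 4.85 CPM, and 18.1, 17, 20.4 and 17.1 CPM in tunicamycin. In IGF2BP3 knockout BBC3 ran from 5.78 to 8.5 CPM in DMSO (median 7.57) and from 18.1 to 21.1 in tunicamycin (median 19.2). In IGF2BP2 knockout it ran from 5.07 to 8.67 CPM (median 6.94) and from 16.4 to 21.3 (median 20). The lowest treated library was thus above the highest control library in each genotype. The log2 fold change of BBC3 was 1.73 (SE 0.0946, adjusted p = 1.07e-06) in parental cells, 1.43 (SE 0.0838, adjusted p = 8.97e-09) with IGF2BP3 lost and 1.49 (SE 0.0974, adjusted p = 1.95e-08) in IGF2BP2 knockout. These and all later adjusted p-values come from the quasi-likelihood test of edgeR, adjusted by the Benjamini-Hochberg method over all genes tested. Within replicate 1 and replicate 2 alone the change of BBC3 was 1.76 and 1.69 in parental cells, 1.49 and 1.37 with IGF2BP3 lost and 1.64 and 1.36 with IGF2BP2 lost.

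PMAIP1 (ENSG00000141682_12), on chromosome 18 (GRCh38, 59899948 to 59904306, plus strand), started from a level many times that of BBC3 and rose by a like log2 step. It was 115, 101, 116 and 97.4 CPM in parental DMSO libraries and 329, 261, 337 and 267 CPM in tunicamycin. In IGF2BP3 knockout it ran from 115 to 151 CPM in DMSO (median 125) and from 275 to 378 in tunicamycin (median 324). In IGF2BP2 knockout it ran from 91.1 to 147 CPM (median 106) and from 248 to 457 (median 279). The groups did not overlap in any genotype, and the widest spread was among the treated IGF2BP2 knockout clones. Its log2 change was 1.48 (SE 0.0936, adjusted p = 2.91e-06) in parental cells, 1.32 (SE 0.0563, adjusted p = 3.07e-10) with IGF2BP3 lost and 1.48 (SE 0.0576, adjusted p = 7.31e-11) in IGF2BP2 knockout. Within replicate 1 and replicate 2 the change of PMAIP1 was 1.54 and 1.41, 1.36 and 1.29, and 1.5 and 1.47 in the same order of genotypes.

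MCL1 (ENSG00000143384_14), on chromosome 1 (GRCh38, 150574551 to 150579738, minus strand), rose less on the log2 scale but from the highest level. It was 338, 299, 348 and 306 CPM in parental DMSO libraries and 464, 425, 477 and 413 CPM in tunicamycin. In IGF2BP3 knockout it went from 295 to 351 CPM (median 318) to 386 to 442 (median 427), and in IGF2BP2 knockout from 283 to 342 CPM (median 296) to 396 to 455 (median 417). Treated and control libraries were apart in all 3 genotypes. The log2 fold change of MCL1 was 0.47 (SE 0.0625, adjusted p = 0.000401) in parental cells, 0.41 (SE 0.0384, adjusted p = 1.34e-06) with IGF2BP3 lost and 0.47 (SE 0.0462, adjusted p = 1.4e-06) in IGF2BP2 knockout. Within the 2 replicate numbers it was 0.47 and 0.47, 0.41 and 0.41, and 0.46 and 0.5.

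BAK1 (ENSG00000030110_13), on chromosome 6 (GRCh38, 33572547 to 33580293, minus strand), moved the other way. It was 26.1, 26.5, 30 and 25.7 CPM in parental DMSO libraries and 20.4, 18.1, 20 and 20.7 CPM in tunicamycin. In IGF2BP3 knockout it fell from 27.9 to 33 CPM (median 30.2) to 18.7 to 25.2 (median 21.6), and in IGF2BP2 knockout from 24.4 to 29.2 CPM (median 26.6) to 17.9 to 22.2 (median 19.7). No treated library reached a control library of its genotype. The log2 fold change of BAK1 was -0.45 (SE 0.0666, adjusted p = 0.000772) in parental cells, -0.49 (SE 0.0491, adjusted p = 2.17e-06) with IGF2BP3 lost and -0.44 (SE 0.0495, adjusted p = 5.61e-06) in IGF2BP2 knockout. Within the 2 replicate numbers it was -0.45 and -0.43, -0.46 and -0.51, and -0.39 and -0.48. GGNBP1, a pseudogene on the other strand, shares 4.11% of the exon bases of BAK1.

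**Figure D2:**
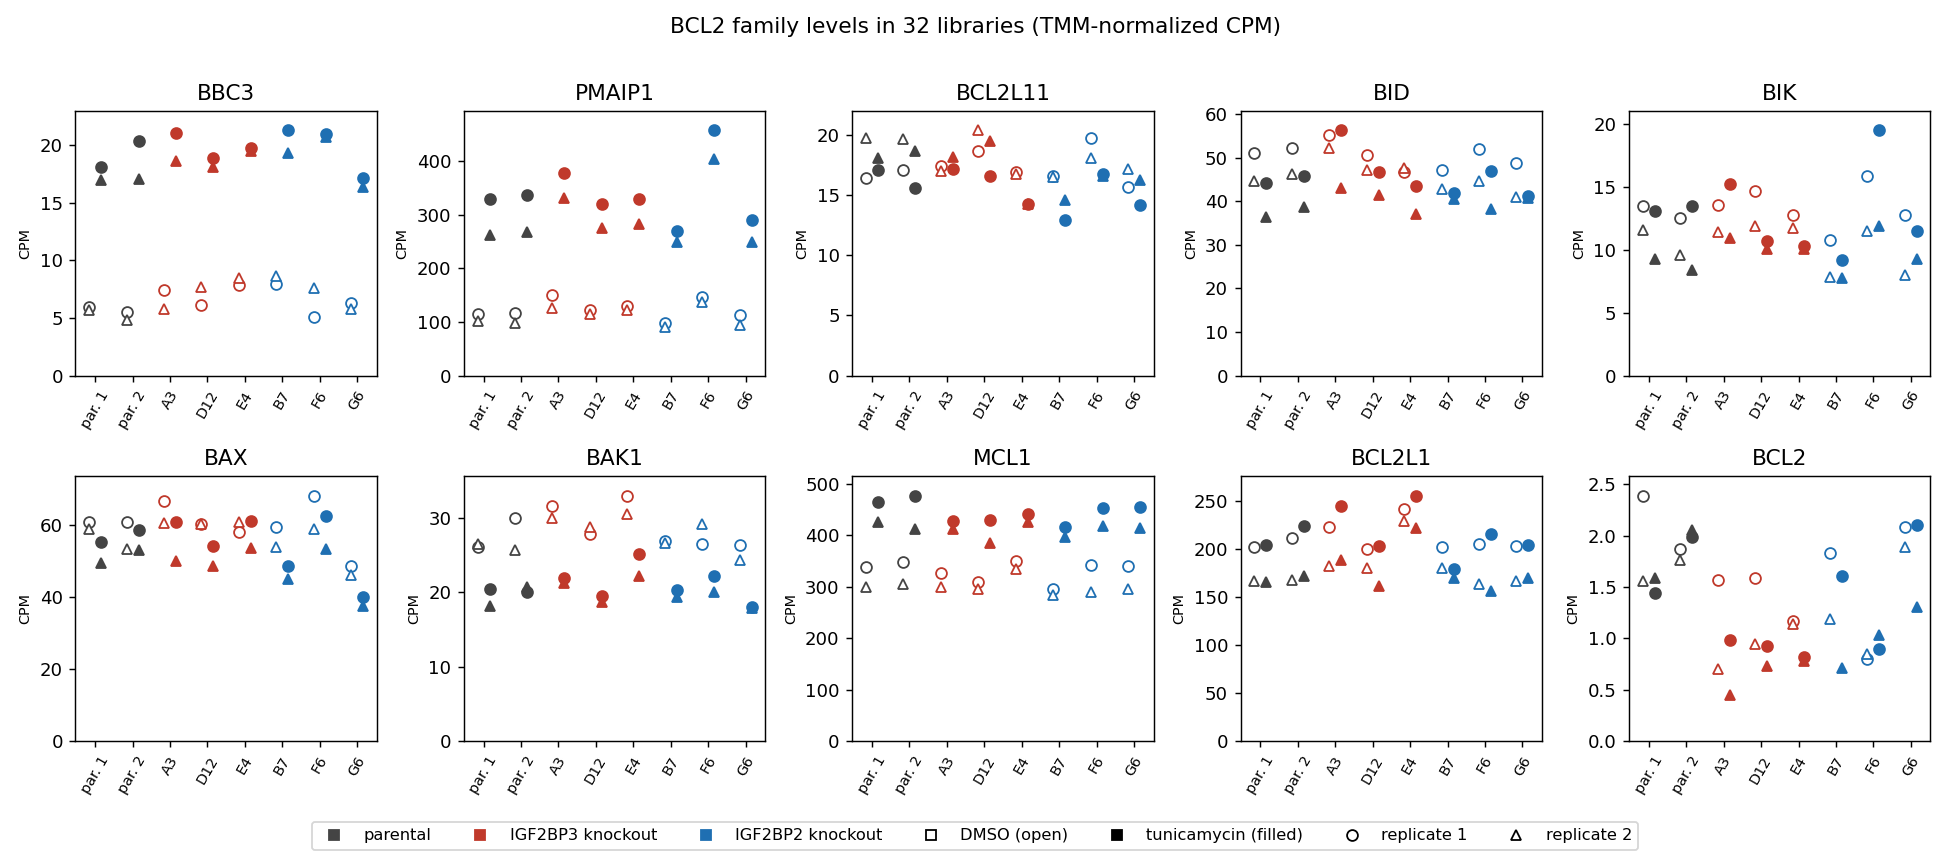
TMM-normalized CPM of each gene in all 32 libraries by line, with DMSO open and tunicamycin filled, replicate 1 as circles and replicate 2 as triangles. Filled points stand above open points of their genotype for BBC3, PMAIP1 and MCL1 and below them for BAK1, and BCL2 reaches at most 2.39 CPM.

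The other pore former, BAX, changed less. BAX ran from 53.2 to 60.8 CPM in parental DMSO libraries and from 49.3 to 58.7 in tunicamycin, and the ranges overlapped in all 3 genotypes. Its log2 change was -0.11 (adjusted p = 0.259) in parental cells, -0.16 (adjusted p = 0.0492) with IGF2BP3 lost and -0.23 (SE 0.0525, adjusted p = 0.0026) in IGF2BP2 knockout. The IGF2BP3 knockout call was kept in 3 of 11 other settings and lost without any 1 clone, with -0.06 within replicate 1 and -0.25 within replicate 2. In IGF2BP2 knockout the call was kept in 12 of 12, with -0.22 and -0.23 within the replicate numbers. In parental cells the values within them were -0.08 and -0.13.

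Among the remaining BH3-only genes, BCL2L11 passed the test in IGF2BP2 knockout alone, at a log2 difference of -0.18 (SE 0.0603, adjusted p = 0.0259), and kept the call in 7 of 12 other settings, not without clone B7 or clone F6. It was -0.07 (adjusted p = 0.694) in parental cells and -0.10 (adjusted p = 0.287) in IGF2BP3 knockout, and neither interaction was called for it. Within the replicate numbers it was -0.02 and -0.1, -0.13 and -0.05, and -0.23 and -0.12. BID was -0.23 (adjusted p = 0.0539), -0.16 (adjusted p = 0.0701) and -0.14 (adjusted p = 0.064) in parental, IGF2BP3 knockout and IGF2BP2 knockout cells, not called in these fits but called in 4 of 12, 2 of 11 and 2 of 12 other settings. Within replicate 1 and replicate 2 BID was -0.19 and -0.27, -0.05 and -0.27, and -0.17 and -0.1. BIK, a BH3-only protein of the endoplasmic reticulum membrane, was -0.09, -0.18 and 0.03, with adjusted p of 0.76, 0.178 and 0.907. Within the replicate numbers BIK was 0.05 and -0.25, -0.17 and -0.16, and 0 and 0.09.

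The survival genes BCL2L1 and BCL2 were not called under tunicamycin. BCL2L1 had log2 fold changes of 0.03 (SE 0.103), 0.02 (SE 0.0724) and -0.03 (SE 0.0816) in parental, IGF2BP3 knockout and IGF2BP2 knockout cells. BCL2 had -0.11 (SE 0.216), -0.60 (SE 0.246, adjusted p = 0.0769) and -0.15 (SE 0.225), on 10 to 57 counts in a library. Within the replicate numbers BCL2L1 was 0.06 and 0.02, 0.09 and -0.04, and -0.01 and -0.04, and BCL2 was -0.3 and 0.13, -0.64 and -0.51, and -0.01 and -0.35.

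In all, 4 of the 10 members were called in parental cells, where 26.8% of all genes tested were called. In IGF2BP3 knockout 5 of 10 were called against 33.8% of all genes, and in IGF2BP2 knockout 6 of 10 against 40.1%. Each count had 3 members higher, BBC3, PMAIP1 and MCL1, beside a background of 12.5%, 16.2% and 19.2% of genes called higher. The members called lower numbered 1, 2 and 3, beside 14.3%, 17.6% and 20.9%. The median log2 fold change of the 10 members was -0.08, -0.13 and -0.09, and that of all genes tested was -0.01 in each genotype.

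Paired by line and replicate number, the tunicamycin change on the log2(CPM + 0.5) scale had the same direction in 16 of 16 pairs for BBC3 (1.11 to 1.95), PMAIP1 (1.19 to 1.63), MCL1 (0.33 to 0.54) and BAK1 (-0.61 to -0.25). BAX and BID were lower in 15 of 16 pairs, with medians of -0.17 and -0.19. BCL2L11 was lower in 14 of 16 (median -0.13). BCL2L1 was higher in 10 of 16, between -0.17 and 0.13. BIK and BCL2 varied most around 0, from -0.44 to 0.28 and from -0.57 to 0.18. The added 0.5 CPM shrinks the changes of BCL2 most, since its levels were 0.448 to 2.39 CPM.

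**Figure D3:**
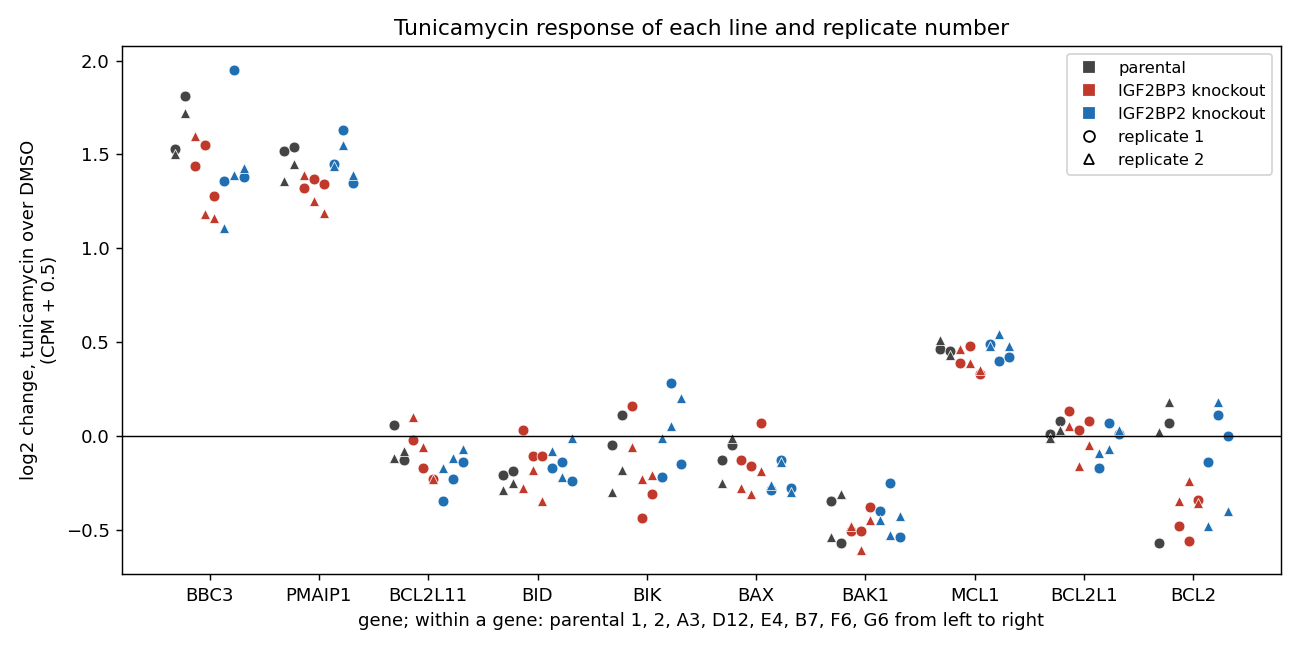
Change of each gene from DMSO to tunicamycin on the log2(CPM + 0.5) scale, 1 point for each of 16 pairs of line and replicate number. All pairs lie above 0 for BBC3, PMAIP1 and MCL1 and below 0 for BAK1, and the pairs of BCL2L1 lie between -0.17 and 0.13.

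The response of these genes to tunicamycin did not differ detectably between knockout and parental cells. The interaction of genotype and treatment was called for 0 of the 10 members and 0 of all genes in both knockouts (0% background). An unadjusted p under 0.05 was reached by 255 of 15313 genes tested for IGF2BP3 knockout and 213 of 15178 for IGF2BP2 knockout. Both lie below the share of 0.05 that chance alone gives, so this test was cautious here and can miss small differences. DESeq2 likewise called 0 members. BBC3 had the interaction furthest from 0 relative to its error, -0.29 (SE 0.131, unadjusted p = 0.0379, adjusted p = 1) for IGF2BP3 knockout, with -0.29 and -0.33 within the replicate numbers. For PMAIP1 the interactions were -0.15 (SE 0.112) and 0.00 (SE 0.118), and for MCL1 -0.05 (SE 0.0712) and 0.00 (SE 0.0868). BAK1 had -0.04 (SE 0.0778) and 0.01 (SE 0.0791).

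The list of regulators included the largest tunicamycin changes among the genes listed here. It holds transcription factors known to act on the family, beside genes such as CDKN1A and MDM2 that are not such factors. Of 16 listed regulators, 12 rose and 2 fell in parental cells, and 11 rose and 2 fell in either knockout. Of all genes 12.5%, 16.2% and 19.2% were called higher and 14.3%, 17.6% and 20.9% lower in parental, IGF2BP3 knockout and IGF2BP2 knockout cells. The list holds known genes of this stress and was written with earlier results of these data known, so its counts partly follow from that choice. The median log2 fold changes of the regulators were 0.58, 0.54 and 0.43, beside -0.01 over all genes. DDIT3 (CHOP) rose by 6.81, 6.45 and 6.54, TRIB3, a pseudokinase induced by it, by 3.65, 3.35 and 3.5, and ATF3, a stress-induced transcription factor, by 3.5, 3.11 and 3.18. CEBPB rose by 2.32, 2.29 and 2.22, JUN by 1.88, 2.02 and 1.8, KLF4 by 1.52, 1.43 and 1.5, and ATF4 by 1.25, 1.15 and 1.12. CDKN1A, which halts the cell cycle, rose by 0.62, 0.41 and 0.38, while the ubiquitin ligase gene MDM2 was not called. FOXO3, a factor known to act on BCL2L11 and BBC3, rose by 0.54, 0.65 and 0.42, and its relative FOXO1 changed by -0.88, -0.83 and -0.92.

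**Figure D4:**
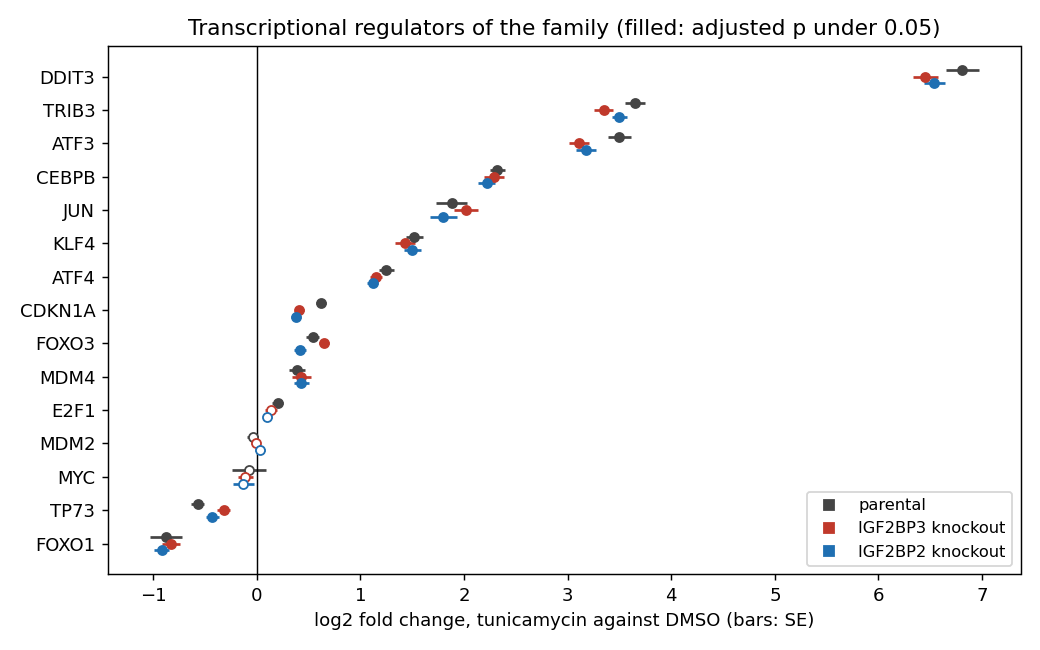
Log2 fold change of 15 genes of the regulator list under tunicamycin in each genotype, with SE bars and filled points where the adjusted p is under 0.05. DDIT3 stands furthest right at 6.81 in parental cells and FOXO1 furthest left at -0.88, and MDM2 and MYC are open in all 3 genotypes.

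Of 15 other BCL2 family genes 11 passed the filter, and 4 rose and 1 fell in parental cells against 5 and 1 in either knockout. The share of all genes called higher was 12.5%, 16.2% and 19.2%, and of those called lower 14.3%, 17.6% and 20.9%, in parental, IGF2BP3 knockout and IGF2BP2 knockout cells. HRK, a further BH3-only gene, rose by 1.23 (SE 0.254), 0.80 (SE 0.134) and 0.82 (SE 0.167). The survival gene BCL2L2 (BCL-w) rose by 0.16, 0.22 and 0.16. BCL2L13 rose by 0.34, 0.33 and 0.36 and BNIP1 by 0.37, 0.30 and 0.30. The BAX-like BOK was the member that fell, with log2 fold changes of -0.38, -0.34 and -0.42. BCL2A1, BCL2L10, BCL2L14 and BMF were among those not tested for low counts.

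Downstream of the mitochondrion 18 genes were tested, and 2 rose and 4 fell in parental cells, 4 and 5 with IGF2BP3 lost, and 6 and 6 with IGF2BP2 lost. These are 33.3%, 50% and 66.7% of the list, where 26.8%, 33.8% and 40.1% of all genes were called, and nothing particular to the list is read from them. The caspase inhibitor XIAP rose by 0.66, 0.56 and 0.62 and BIRC2 (cIAP1) by 0.54, 0.43 and 0.54. DFFB, the nuclease that cuts DNA in apoptosis, changed by -0.64, -0.61 and -0.65. Of 10 tested genes for proteins that set the stability or location of the family, 2 rose and 1 fell in parental cells and 3 rose and 1 fell in each knockout, shares of 30%, 40% and 40% that lie near those of all genes. DYNLL1, a dynein light chain known to bind BCL2L11, changed by -0.34, -0.34 and -0.36, and HUWE1, a ubiquitin ligase for MCL1, rose by 0.18, 0.17 and 0.17.

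Over the 16 combinations of line and treatment, each member's mean log2 CPM was compared with those of 10143 genes by Pearson's r, as a description of points that share libraries and the tunicamycin step. The profiles most like PMAIP1 were those of XIAP (0.99), JUNB (0.989) and ARTN (0.988). Those most like BBC3 were ATF3 (0.991), TES (0.991) and SETD5 (0.987). For MCL1 they were STARD4 (0.989), ARHGEF2 (0.986) and TXNDC11 (0.983). For BCL2L11, which moved little with treatment, the closest reached 0.853 (CARD10), 0.852 (CD9) and 0.852 (ATP5F1D).

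Loss of IGF2BP3 gave few calls in the family. The 6 knockout libraries of a treatment come from 3 clones, so libraries of one clone are not independent and the p-values of the genotype comparisons are too small to that extent. In DMSO 0 of 10 members were called, as against 1.61% of all genes. PMAIP1 was 115 to 151 CPM in the knockout and 97.4 to 116 CPM in parental cells, a log2 difference of 0.25 (SE 0.0661, adjusted p = 0.0785), and the ranges overlapped. BBC3 was 5.78 to 8.5 against 4.85 to 5.96 CPM, a log2 difference of 0.39 (SE 0.125, adjusted p = 0.151), again with overlap. Within replicate 1 and replicate 2 these were 0.21 and 0.29 for PMAIP1 and 0.32 and 0.47 for BBC3. With the replicate number as a term PMAIP1 was called. In the same comparison CDKN1A and MDM2 were called, at 0.48 (adjusted p = 0.0137) and 0.26 (adjusted p = 0.0415), and ATF3 at 0.55 (adjusted p = 0.00553).

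In tunicamycin 1 of 10 members was called in IGF2BP3 knockout, BCL2, where 0.718% of all genes were. BCL2 was 1.44, 1.59, 1.99 and 2.06 CPM in parental libraries, from 31 to 43 counts, and 0.448 to 0.983 CPM in the knockout (median 0.799), from 10 to 21 counts. The groups did not overlap, and the log2 difference was -1.18 (SE 0.228, adjusted p = 0.0341). The call was lost in 10 of 16 other settings, among them counts summed per line and the omission of any 1 clone or any 1 parental library, while the change stayed between -1.48 and -0.92. Within the 2 replicate numbers it was -0.92 and -1.48. In DMSO it was -0.68 (SE 0.23, adjusted p = 0.182).

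Loss of IGF2BP2 gave 0 called members in DMSO (0.0137% of all genes) and 0 in tunicamycin (0.00694%). At an unadjusted p under 0.05 the number of genes was 690 of 14564 tested in DMSO and 1005 of 14419 in tunicamycin, where chance alone gives a share of 0.05. The members' log2 fold changes lay between -0.39 (BCL2, SE 0.284) and 0.33 (BBC3, SE 0.156) in DMSO and between -0.46 (BCL2, SE 0.28) and 0.10 (PMAIP1, SE 0.168) in tunicamycin. Compared with each other over both treatments, without the parental libraries, the knockouts differed in 1 of 10 members against 12.1% of all genes. That was BAK1, higher in IGF2BP3 knockout by 0.16 (SE 0.0459, adjusted p = 0.0239), with overlapping ranges, and the call held in 6 of 14 other settings, not without clone A3, E4, B7 or G6 or without the G6 controls. Within the replicate numbers it was 0.17 and 0.13, not called in either.

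Members were also called in single clones against parental cells, most of them genes that were not called for the genotype as a whole. The exception was BCL2 in the IGF2BP3 knockout clones, which was called for that genotype in tunicamycin. Each clone was compared with the same 8 parental libraries over both treatments, so the comparisons share their controls, and a clone's effect stands on 4 libraries of 1 cell line. Leaving out a replicate of a clone or parental sample in these fits removes its DMSO and its tunicamycin library together. The number of members called was 2 for A3 (6.87% of all genes), 1 for D12 (7.27%), 5 for E4 (14.1%), 2 for B7 (15.8%), 2 for F6 (15.5%) and 1 for G6 (2.36%).

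PMAIP1 was higher in clone F6, at 143 CPM against 107 in parental DMSO libraries and 430 against 299 in tunicamycin (means). The groups were apart in both treatments, and the log2 difference was 0.47 (SE 0.0757, adjusted p = 2.78e-05), called in 11 of 11 other settings. Clone A3 had 138 CPM in DMSO and 355 in tunicamycin, a log2 difference of 0.31 (SE 0.0761, adjusted p = 0.00921) with the groups apart in DMSO, lost without A3 replicate 1 (0.19). Clone B7, made with the guide of F6, had 94.9 and 259 CPM and a log2 difference of -0.19 (SE 0.0779, adjusted p = 0.096). Within replicate 1 and replicate 2 the difference from parental was 0.40 and 0.54 for F6, 0.28 and 0.33 for A3, and -0.26 and -0.11 for B7. CDKN1A was higher in F6 by 0.66 (adjusted p = 9.22e-11), in A3 by 0.50 (adjusted p = 7.65e-08), in E4 by 0.48 and in B7 by 0.25. Whether this is related to the difference of PMAIP1 was not tested.

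BAX was lower in clone G6, at 47.4 against 58.4 CPM in DMSO and 38.8 against 54.1 in tunicamycin. The libraries were apart in both treatments, and the log2 difference was -0.39 (SE 0.0638, adjusted p = 0.000299), called in 12 of 12 other settings, with -0.41 and -0.36 within the replicate numbers. The clones B7 and F6 had -0.12 (adjusted p = 0.201) and 0.11 (adjusted p = 0.278). G6 was also the one clone with its own guide among those of IGF2BP2, so guide and clone cannot be told apart.

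BCL2 was lower in 4 of 6 clones. The log2 difference was -0.99 (SE 0.239, adjusted p = 0.00673) in A3, -0.81 (SE 0.238, adjusted p = 0.0307) in D12, -0.92 (SE 0.236, adjusted p = 0.00736) in E4 and -1.03 (SE 0.246, adjusted p = 0.0032) in F6. F6 stood at 0.824 CPM in DMSO and 0.964 in tunicamycin, against 1.9 and 1.77 in parental libraries, apart in both and called in 11 of 11 other settings. Clone B7 had -0.47 (adjusted p = 0.185) and G6 0.00 (adjusted p = 0.996). Leaving out A3 replicate 2 gave -0.55 and ended the call (adjusted p = 0.199), and leaving out A3 replicate 1 gave -1.66. The D12 call was lost without D12 replicate 2, or without any 1 of parental sample 1 replicate 1, sample 2 replicate 1 and sample 2 replicate 2, and the E4 call without either E4 replicate. These levels rest on 10 to 57 counts in a library.

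The remaining calls were smaller. BBC3 was higher in E4 by 0.31 (SE 0.0955, adjusted p = 0.0251) and in B7 by 0.35 (SE 0.096, adjusted p = 0.0108), with the libraries apart in DMSO only, where it was 8.18 and 8.32 CPM against 5.5. BCL2L11 was lower in the same 2 clones, with log2 differences of -0.19 (adjusted p = 0.0466) and -0.23 (adjusted p = 0.0142). BAK1 was higher in E4 by 0.24 (SE 0.0502, adjusted p = 0.00081), apart in both treatments, and BCL2L1 by 0.33 (SE 0.095, adjusted p = 0.0181). Every one of these calls was lost when replicate 1 of its clone was left out, and those of BBC3 and BCL2L11 in both clones also without its replicate 2. Those of BBC3, BCL2L11 and BCL2L1 in E4 were also lost without replicate 2 of either parental sample, and that of BCL2L11 in B7 without parental sample 2 replicate 2. MCL1 was not called in any clone, with log2 fold changes from -0.15 (B7) to 0.03 (E4).

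**Figure D5:**
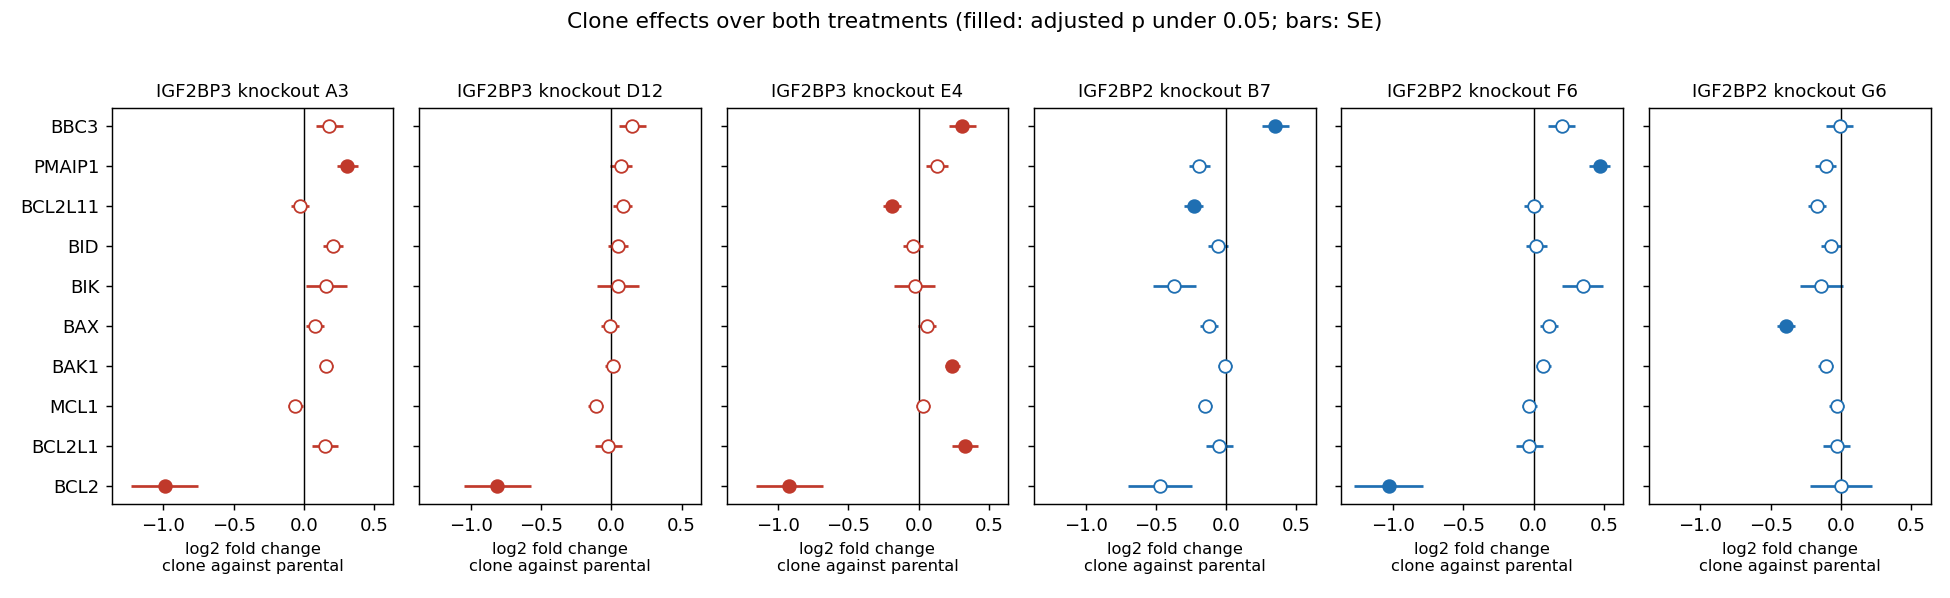
Log2 fold change of each gene in each clone against parental cells over both treatments, with SE bars and filled points where the adjusted p is under 0.05. PMAIP1 is filled in A3 and F6, BAX in G6 alone, and BCL2 in A3, D12, E4 and F6.

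The clones were also tested against each other, without parental cells. Among the IGF2BP3 knockout clones 0 of 10 members were called, as against 7.63% of all genes. With the replicate number as a term some members were called there, as given in the closing section. Among the IGF2BP2 knockout clones 4 of 10 were called, as against 26.4%. The distance between the highest and lowest clone was 0.65 for PMAIP1 (log2, adjusted p = 1.15e-05), 0.49 for BAX (adjusted p = 0.00022), 0.70 for BIK (adjusted p = 0.0227) and 1.05 for BCL2 (adjusted p = 0.033). Without clone F6 the distance for PMAIP1 was 0.09 and its call was lost, as were those of BIK and BCL2. The BIK call was also lost without B7 and the BCL2 call without G6, its controls alone or replicate 1, while BAX was called with any 1 clone left out.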

How the data were processed

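Per the labels' protocols, poly(A) RNA was made into strand-preserving libraries and read from both ends. The authors deposited whole-number counts per gene, and the submitters' processing notes name STAR 2.7.5c and hg38; the counting tool, its strand setting and its annotation are not given in the sources used here. Totals were 16651438 to 24913021 counts per library, so BCL2 rests on 10 to 57 counts. Every count column was used.

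Counts were fitted across all genes with edgeR 4.0.16 in R 4.3.3 (TMM, filterByExpr, quasi-likelihood test, Benjamini-Hochberg threshold of 0.05). Tunicamycin and interaction fits had the line as a term, clone fits had treatment, and genotype fits had none. CPM were scaled by TMM factors from the 32 libraries together. DESeq2 1.42.0, other filters, a replicate block and left-out libraries were alternatives. The fits were tested on simulated counts drawn independently around each gene's mean, with changes put in for some genes. That simulation held no replicate split and no other differences between clones, so it does not cover them. Gene lengths and positions are from GENCODE v29, and identifiers were matched to symbols for 42060 of 60660 genes.

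The members, the lists and the designs were chosen with earlier results of these data known. The members, the targeted genes and HSPA5 could always be named, list genes if called in some comparison, and for 4 members the 3 genes of most similar profile with a mean count of at least 100. Replicate libraries were compared before averaging, and the chi-square statistic of their counts per degree of freedom was 4.59 to 25.2, so none was a duplicate.

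Some list genes, though included in the counts, are not reported here.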

Additional observations from a re-analysis of the deposited data

Results flagged for a closer look

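Of 60 combinations of gene and group, 3 held a library that stood far from the rest of its group, by Dixon's criterion at a level where chance flags about 1 in 20 groups. BIK in the tunicamycin-treated IGF2BP3 knockout clone A3, replicate 1, was 15.2 CPM, and the nearest of the other 5 libraries was 10.9 CPM. BIK in the tunicamycin-treated IGF2BP2 knockout clone F6, replicate 1, was 19.5 CPM, with the nearest at 11.9 CPM. BAX in the DMSO-treated clone A3, replicate 1, was 66.6 CPM, with the nearest at 60.9 CPM. All 3 were the highest of their group and numbered replicate 1, in which BIK was higher in 16 of 16 combinations of line and treatment and BAX in 15.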

How the results depend on the processing

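No result changed direction past its threshold under any alternative run. The calls of BBC3, PMAIP1, MCL1 and BAK1 under tunicamycin were kept under every alternative in all 3 genotypes. Counts of members called moved elsewhere, as follows. For IGF2BP3 knockout against parental in DMSO (0 called) DESeq2, no filter on low counts and all 32 libraries in one fit each gave 1, and in tunicamycin (1 called) counts summed per line gave 0. For the knockouts against each other (1 called) no filter and omission of the clone G6 controls gave 0. Among IGF2BP3 knockout clones (0 called) DESeq2 gave 1, and no filter and a mean CPM of at least 1 each gave 2. For clone A3 (2 called) DESeq2 and the CPM filter each gave 4. Counts over all genes in these fits are given in the next paragraph only in part, so the member counts are not read against a background. Leaving out single clones, replicates of a line or replicate numbers gave 0 to 0 for IGF2BP3 knockout in tunicamycin, 0 to 5 for the knockouts against each other, 0 to 4 among IGF2BP3 and 2 to 5 among IGF2BP2 knockout clones, and, against parental, 1 to 4 for A3, 0 to 1 for D12, 0 to 5 for E4 and 0 to 4 for B7. The cause was not tested, beyond the smaller number of libraries. Over all genes, fits with libraries left out gave 13 to 113 for IGF2BP3 knockout in tunicamycin and 146 to 2218 for the knockouts against each other. They gave 194 to 2903 among IGF2BP3 and 1564 to 5917 among IGF2BP2 knockout clones. Against parental they gave 938 to 1265 for A3, 532 to 1124 for D12, 1162 to 2099 for E4 and 1423 to 2487 for B7.

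Libraries with the same replicate number deviated together in 119 of 120 pairs (r over 0.1, 0.0878 to 0.549, median 0.375). The main fits did not take the number as a pairing, because not every pair passed. Their spread therefore includes this shared split, and a member not called in them can be called once the number is a term. The replicate block gave 1 member for IGF2BP3 knockout in DMSO (PMAIP1), 2 for the knockouts against each other (BAK1 and BCL2L1), 5 among IGF2BP3 and 7 among IGF2BP2 knockout clones, 5 for A3, 2 for D12 and 6 for B7. Under tunicamycin it gave 5, 7 and 7 members in parental, IGF2BP3 knockout and IGF2BP2 knockout cells, adding BID in all 3 and BCL2 in IGF2BP3 knockout. These counts are not read as particular to the family, since the block also raised calls over all genes where those are given next. For tunicamycin in the knockouts, and between the knockouts, the block's count over all genes is not reported here. Over all genes the block raised the calls for tunicamycin in parental cells from 3854 to 5989, for IGF2BP3 knockout from 235 to 513 in DMSO and from 105 to 333 in tunicamycin, among IGF2BP3 knockout clones from 1089 to 2080, among IGF2BP2 knockout clones from 3729 to 5844, and for A3, D12, E4, B7, F6 and G6 from 1074, 1135, 2206, 2468, 2421 and 369 to 2091, 2220, 3682, 3922, 3867 and 1276. Counts summed per line lowered those of IGF2BP3 knockout to 47 and 34 and of IGF2BP2 knockout from 2 and 1 to 1 and 0, DESeq2 gave 507, 270, 12 and 3, and all 32 libraries in one fit gave 508, 491, 156 and 245. Without a filter they were 427 and 185 for IGF2BP3 knockout, 1148 against 1801 between the knockouts and 1 against 0 for the interaction with IGF2BP3 knockout. Depth limits BCL2 most, at 10 to 57 counts in a library.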
